A study of Mus musculus with 13 samples.

Results

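The integrated stress response was examined through 10 genes in RNA sequencing of DN3 and DN4 thymocytes, the CD4-CD8- T cell progenitors on either side of β-selection. The 10 genes are Asns, Trib3, Atf4, Atf3, Atf5, Ddit3, Chac1, Sesn2, Ddit4 and Ppp1r15a, out of 47937 genes in the count table, and each was found there once. They were chosen by name because Asns and Trib3 were known to differ in these data, so the values of Asns and Trib3 are given as a description and nothing is read from a test of them. The cells were freshly sorted from 6-week-old C57BL/6 mice that were either Wt;Lck-Cre+ (Wt) or Opa1fl/fl;Lck-Cre+ (KO), and received no treatment. Both genotypes carried the Lck-Cre transgene, which deletes floxed DNA in developing T cells from the DN stages onward, so that only cells in which the Lck promoter has been active lose Opa1, the gene of a mitochondrial inner membrane fusion and cristae-shaping protein. There were 13 libraries from 7 mice, with 3 DN3 KO, 3 DN3 Wt, 3 DN4 KO and 4 DN4 Wt libraries. Mice KO45, KO49, KO51, WT05, WT46 and WT48 gave both stages, and WT40 gave DN4 cells only.

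In the integrated stress response, kinases that sense amino acid shortage, endoplasmic reticulum stress, viral RNA or haem shortage phosphorylate the initiation factor eIF2. General translation falls, whereas the mRNA of the transcription factor ATF4 is translated more efficiently, so that ATF4 activity can change with no change in its mRNA. ATF4 then drives genes of amino acid supply, further transcription factors and feedback inhibitors, and mitochondrial dysfunction is a known trigger of this programme in other tissues. ATF4 binds many of its targets, as a dimer with a C/EBP protein, at a composite element.

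This element was searched for as TGATGNAAN on both strands in RefSeq promoters of GRCm38.p6, each with 250 bases before and 50 bases after the annotated start. It was found in 3.95% of all 32851 promoter windows. All 10 genes had a window (Atf5 had 2), and the element was present in those of Asns, Trib3, Chac1 and Atf3. No match to these letters lay in the windows of Atf4, Atf5, Ddit3, Sesn2, Ddit4 and Ppp1r15a. It was also found in 10 of 29 other ATF4 target genes with a window (34.5%). Asns and Trib3 were chosen for their values and Atf3 was almost silent, so nothing is read from the levels of the genes with the element. The 4 sites in these genes are shown as a description. Each is written 5′ to 3′ on the strand of its gene, with the element in capitals.
Asns: acaTGATGAAACttcccgcacgcGTTACAg
Trib3: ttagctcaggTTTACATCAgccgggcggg
Chac1: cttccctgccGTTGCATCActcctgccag
Atf3: ccttctcgcaCTTGCATCAccaagtccgc
The Asns stretch is at chr6:7693206-7693235 on the minus strand. Its element begins 23 bases before the RefSeq start, and 11 bases further on the second capital run is GTTACA, the second nutrient-sensing response element described for this gene, whose letters were found in 8.25% of all windows on either strand. In GENCODE M21 the Asns gene begins further upstream, so that both runs fall inside its first exon. The Trib3 stretch is at chr2:152344029-152344057 (minus strand), and its element lies on the opposite strand, from base 14 to base 22 after the RefSeq start. GENCODE M21 starts Trib3 further downstream, which leaves the element upstream of the gene. In Chac1, at chr2:119351038-119351066 (plus strand), and in Atf3, at chr1:191183426-191183454 (minus strand), the element lies on the opposite strand and begins 194 and 111 bases before the RefSeq start.

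The libraries held 5926848 to 14148661 counts. Il2ra, which encodes the CD25 that marks DN3 cells, was at 726 CPM or more in the DN3 libraries and at 24.1 CPM or less in the DN4 libraries. CPM are counts scaled to the library size after TMM normalisation. Opa1 counts over the whole gene did not separate the genotypes in DN3 (88.4 to 93.7 CPM in KO and 90.9 to 112 CPM in Wt), so the genotype rests on the labels. In DN4 cells the 8 B-cell markers summed to 953 to 6124 CPM, highest in WT48, KO49, WT05 and KO45, against 289 to 427 CPM in DN3. Cd4 and Cd8a, which DN cells should lack, were highest in the DN4 library of KO45, at 670 and 1131 CPM. The DN3 library of WT05 was the shallowest and gave 20.1% of its counts to the single gene Gm42418 (0.276% to 1.17% in the other libraries), a gene named after its values were seen. These are bulk samples, in which fewer cells of a type and less RNA per cell cannot be told apart.

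Asns, Trib3, Atf5, Chac1, Ddit3 and Ddit4 had higher mean levels in KO than in Wt cells at both stages. Every KO library was above every Wt library at both stages in Asns and Atf5 only. Trib3 was so ordered in DN4 alone and Chac1 in DN3 alone, whereas the Wt and KO libraries overlapped in Atf4, Ddit3 and Ddit4 at both stages. The ratios of KO to Wt means in DN4 and DN3 were 1.06 and 1.17 for Ddit3 and 1.02 and 1.24 for Ddit4. The mean of Asns, which encodes asparagine synthetase, was 13.8 times the Wt mean in DN4 and 6.54 times in DN3. For Trib3, a pseudokinase that inhibits ATF4 and AKT, the ratios of means were 3.31 and 3.51. For Atf5, a transcription factor whose translation is controlled like that of ATF4 and which acts in the mitochondrial stress response of mammals, they were 1.46 and 1.49.

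**Figure D1:**
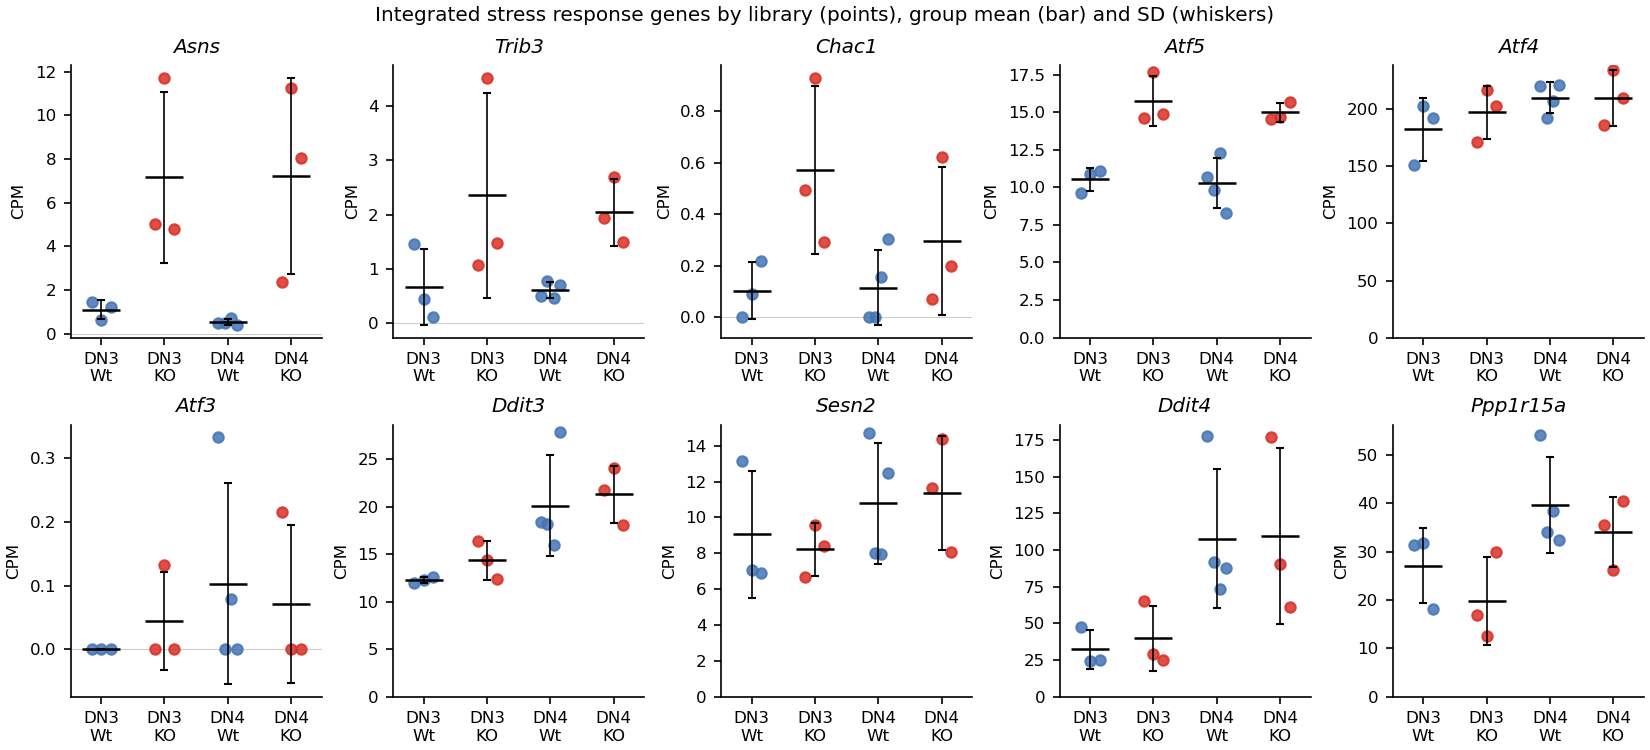
CPM (linear axis) of the 10 genes in each library (points, blue Wt and red KO), with the group mean (bar) and SD (whiskers), in 3 or 4 libraries per group. For Asns and Atf5 every KO point lies above every Wt point of the same stage, the Trib3 points overlap in DN3, and Chac1 and Atf3 stay below 1 CPM.

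Asns rested on few reads in Wt cells. Its counts in the Wt libraries were 5, 7 and 11 in DN3 (WT05, WT46, WT48) and 6, 5, 9 and 4 in DN4 (WT05, WT40, WT46, WT48). The KO libraries of KO45, KO49 and KO51 held 61, 88 and 49 counts in DN3 and 33, 163 and 81 in DN4. A count of 4 has an exact Poisson 95% interval of 1.09 to 10.2 counts, and the lowest KO count, 33, one of 22.7 to 46.3, both for counting error only. In CPM, the DN3 KO libraries were at 5.02, 11.7 and 4.80 and the DN3 Wt libraries at 1.46, 0.619 and 1.21. The DN4 KO libraries were at 2.36, 11.3 and 8.06 CPM and the DN4 Wt libraries at 0.499, 0.487, 0.709 and 0.405 CPM. Thus no KO library overlapped a Wt library at either stage, and the lowest KO value was 3.28 times the highest Wt value in DN3 and 3.33 times in DN4.

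The KO libraries did not agree on the size of the Asns level. KO49 was highest at both stages, and the highest KO value was 2.44 times the lowest in DN3 and 4.77 times in DN4, against 2.36 and 1.75 times among Wt libraries. The lowest DN4 KO value was that of KO45, the library with the most Cd4 and Cd8a, and the part of these cells in that value was not tested. The fitted log2 fold change (KO minus Wt) was 3.76 (SE 0.53) in DN4 and 2.78 (SE 0.53) in DN3. It ranged from 3.30 to 4.18 in DN4 and from 2.23 to 2.997 in DN3 over the alternatives, including each library left out in turn.

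Trib3 had 13, 34 and 15 counts in the DN3 KO libraries (KO45, KO49, KO51) and 5, 5 and 1 in the DN3 Wt libraries (WT05, WT46, WT48). These were 1.07, 4.52 and 1.47 CPM against 1.46, 0.442 and 0.110 CPM. The groups overlapped through WT05, whose 5 counts allow 0.474 to 3.41 CPM, and KO49 was again the highest library. In DN4 the KO libraries held 27, 39 and 15 counts, or 1.93, 2.69 and 1.49 CPM, and the Wt libraries 6 to 8 counts, or 0.473 to 0.779 CPM, with no overlap. The log2 fold change was 1.76 (SE 0.36) in DN4 and 2.12 (SE 0.89) in DN3, and the DN3 value was 2.92 without WT05 and 1.23 without KO49.

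Atf5 was less variable than Asns among KO libraries. In DN3 the KO libraries were at 14.7, 17.7 and 14.9 CPM and the Wt libraries at 9.64, 10.9 and 11.1 CPM. In DN4 the KO libraries were at 14.6, 14.7 and 15.7 CPM and the Wt libraries at 10.7, 9.84, 12.3 and 8.31 CPM (WT05, WT40, WT46, WT48). Every KO library was thus above every Wt library at each stage, with log2 fold changes of 0.56 (95% CI 0.13 to 0.99) in DN3 and 0.57 (95% CI 0.19 to 0.95) in DN4. Exons of Atf5 overlap Nup62 and Il4i1 on the other strand, and the strand setting of the counting was not given in the sources used here. Il4i1 was highest in the DN4 library of WT48 (110 CPM), where Atf5 was lowest, and was at most 1.46 CPM in DN3, while Nup62 was at 126 to 167 CPM in DN3 KO and 148 to 166 CPM in DN3 Wt libraries.

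Asns and Atf5 were the 2 of the 8 tested genes with every KO library above every Wt library in DN3, where 3.1% of all tested genes were so ordered. Asns, Trib3 and Atf5 were so ordered in DN4, where the background was 2.74%. Asns and Atf5 were so ordered at both stages, as were 21 of 11843 genes tested at both (0.177%). The rule chose Asns and Trib3 for their values, and nothing is read from these counts. By adjusted p from the edgeR quasi-likelihood test, 0 of the 6 genes other than Asns and Trib3 were called in either stage. Of all genes, 0.0535% (7 of 13084) were called in DN4, where 715 had an unadjusted p under 0.05 and DESeq2 called 51. In DN3, 0% (0 of 12105) were called, with 168 at an unadjusted p under 0.05 and 3 by DESeq2. The count filter was passed by Asns and Trib3 in these fits through their KO libraries.

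Atf4, the central regulator, was at 172, 203 and 217 CPM at its lowest, median and highest in DN3 KO libraries and at 152, 192 and 203 CPM in DN3 Wt libraries. In DN4 it was at 186 to 235 CPM in KO and 192 to 221 CPM in Wt libraries, so the groups overlapped at both stages. The log2 fold change was 0.03 (95% CI -0.20 to 0.26) in DN4 and 0.10 (95% CI -0.25 to 0.46) in DN3. Per kilobase of exon, Atf4 was at 77.4 to 89.2 mean CPM in the 4 groups, and Asns at 0.192 in DN4 Wt and 2.64 in DN4 KO cells. Atf4 mRNA was thus the most abundant of the 10 per length in all 4 groups, and Asns mRNA stayed low in KO cells.

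Chac1 and Atf3 were too low to pass the filter in any comparison. Chac1 encodes a glutathione-degrading enzyme induced through ATF4. It had 6, 7 and 3 counts in the DN3 KO libraries and 0, 1 and 2 in the DN3 Wt libraries, so that all KO libraries were above the Wt libraries by few reads. The pooled ratio of KO to Wt was 4.25 in DN3 (exact binomial 95% interval 1.22 to 22.8) and 2.79 in DN4 (0.916 to 10.1), where counts were 1, 9 and 2 against 0, 0, 2 and 3. These intervals cover counting error only. Atf3, a stress-induced transcription factor, had 0 to 4 counts in every library, and the 3 DN3 Wt libraries held none.

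The other effectors showed no genotype difference larger than the spread between mice. Ddit3 encodes CHOP, a transcription factor linked to cell death under stress, Sesn2 a sestrin that restrains mTORC1, Ddit4 another mTORC1 inhibitor (REDD1), and Ppp1r15a the GADD34 subunit that directs dephosphorylation of eIF2. In DN4 the log2 fold changes (KO minus Wt) were 0.12 for Ddit3 (95% CI -0.33 to 0.58), 0.11 for Sesn2 (95% CI -0.52 to 0.75), 0.07 for Ddit4 (95% CI -0.86 to 0.99) and -0.19 for Ppp1r15a (95% CI -0.69 to 0.32). In DN3 they were 0.22 for Ddit3, -0.11 for Sesn2, 0.34 for Ddit4 and -0.45 for Ppp1r15a, and each 95% CI included 0. The DN3 value of Sesn2 depended on WT05 and was 0.22 without it, and that of Ddit4 depended on KO45 and was -0.22 without it. That of Ppp1r15a was -0.87 without KO51. In DN4, Ddit4 was at -0.48 without KO45.

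**Figure D2:**
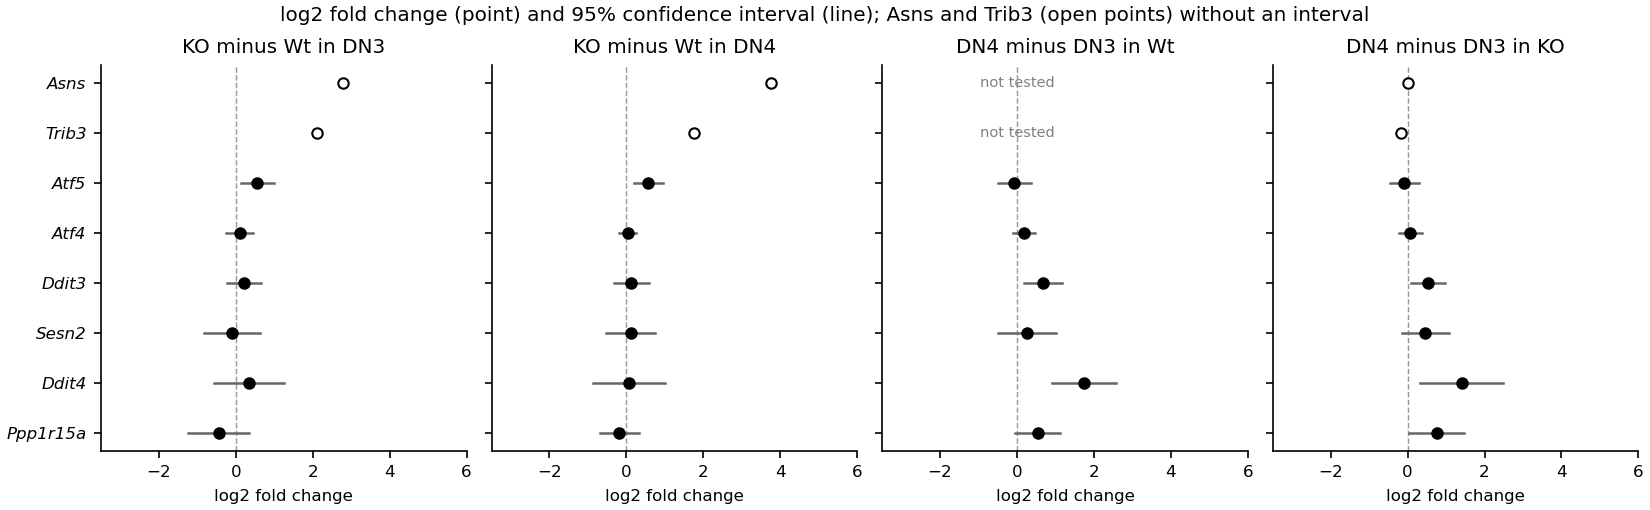
log2 fold change (point) of the 8 genes that passed the count filter, in each comparison, with its 95% confidence interval (line) except for Asns and Trib3 (open points), which were chosen for their values. Between genotypes Asns has the highest point at both stages, and the interval of Ddit4 lies above 0 between stages in both genotypes. Asns and Trib3 had too few counts to be tested in Wt cells.

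Between the stages, Ddit4 rose from DN3 to DN4 in Wt cells and had a similar estimate in KO cells. The DN3 Wt libraries were at 47.6, 24.1 and 24.96 CPM (WT05, WT46, WT48) and the DN4 Wt libraries at 177, 91.9, 73.6 and 87.9 CPM (WT05, WT40, WT46, WT48), with no overlap. The log2 fold change was 1.74 (SE 0.37, edgeR quasi-likelihood test, adjusted p = 0.0108). In KO cells the values were 65.4, 29.2 and 25.3 CPM in DN3 and 177, 90.7 and 61.2 CPM in DN4 (KO45, KO49, KO51), and the stages overlapped because DN3 cells of KO45 were above DN4 cells of KO51. The log2 fold change was 1.41 (SE 0.47, edgeR adjusted p = 0.0735), and with the mouse as a replicate block it was 1.42 (edgeR adjusted p = 1.23e-05). Within each of the 6 mice with both libraries the value was higher in DN4, by 1.27 to 1.89 on the log2 scale. The Wt call was lost without the DN3 library of WT48 (edgeR adjusted p = 0.050), where the log2 fold change was 1.59.

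**Figure D3:**
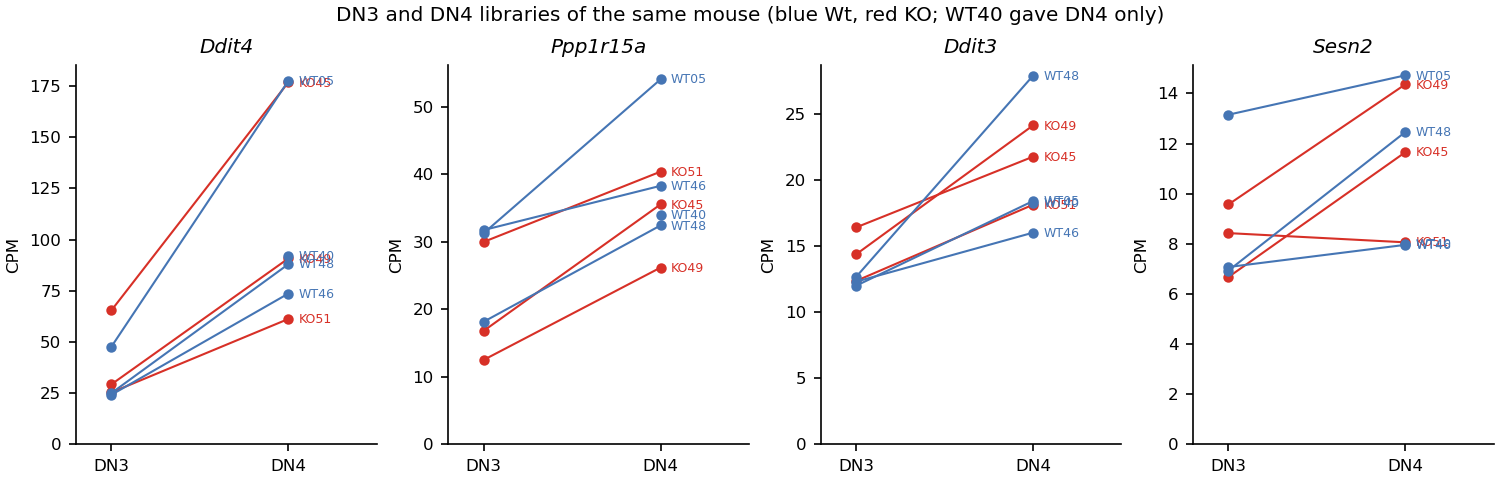
CPM (linear axis) of 4 genes in the DN3 and DN4 libraries of each mouse, joined by lines (blue Wt, red KO). Ddit4, Ppp1r15a and Ddit3 are higher in DN4 in all 6 mice with both libraries, and Sesn2 in 5 of 6.

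Ddit3 and Ppp1r15a were higher in DN4 within all 6 mice, without passing the edgeR test between the 2 stages in either genotype. Ddit3 was at 12.0 to 12.6 CPM in DN3 Wt and 16.0 to 27.9 CPM in DN4 Wt libraries, and at 12.3 to 16.4 CPM in DN3 KO and 18.1 to 24.1 CPM in DN4 KO libraries. Its stages did not overlap in either genotype, and the log2 fold changes were 0.68 in Wt (SE 0.22, edgeR adjusted p = 0.0541) and 0.54 in KO cells (SE 0.19, edgeR adjusted p = 0.0884). Ppp1r15a was at 31.3, 31.7 and 18.1 CPM in DN3 Wt and 32.4 to 54.1 CPM in DN4 Wt libraries, a log2 fold change of 0.53 (SE 0.25, edgeR adjusted p = 0.169). In KO cells it was at 16.8, 12.5 and 30.0 CPM in DN3 and 35.5, 26.2 and 40.4 CPM in DN4, a log2 fold change of 0.75 (SE 0.31, edgeR adjusted p = 0.136). With the replicate block, both genes rose in KO cells (Ddit3 0.54, edgeR adjusted p = 0.0251, and Ppp1r15a 0.82, edgeR adjusted p = 0.00333). Some unpaired alternatives also passed the threshold. For Ddit3 in Wt cells these were DESeq2 (adjusted p = 0.0265), the edgeR fit of all libraries (adjusted p = 0.0196) and the fit without the DN4 library of WT46 (edgeR adjusted p = 0.0465). For Ppp1r15a in KO cells they were the edgeR fit with no filter (adjusted p = 0.0489) and that without the DN3 library of KO51 (adjusted p = 0.0325).

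Sesn2, Atf4 and Atf5 did not differ between stages beyond the spread. Sesn2 had a log2 fold change of 0.27 (SE 0.33, edgeR adjusted p = 0.608) in Wt and 0.45 (SE 0.27, edgeR adjusted p = 0.276) in KO cells. For Atf4 the estimates were 0.18 in Wt (95% CI -0.11 to 0.47) and 0.07 in KO cells (95% CI -0.23 to 0.37), and for Atf5 -0.06 (95% CI -0.50 to 0.37) and -0.09 (95% CI -0.47 to 0.28). Asns and Trib3 in KO cells had estimates of 0.01 (SE 0.57) and -0.16 (SE 0.56), and that of Trib3 was 0.65 without the DN3 library of KO49.

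Thus 1 of the 6 genes tested in Wt cells was called higher in DN4, beside 13.4% of all 12691 genes, and 0 were called lower, beside 9.43%. Of the same 6 genes in KO cells, 0 were called in either direction (3 at an unadjusted p under 0.05, and 0 by DESeq2), beside 11.2% higher and 7.34% lower among all 12580 genes. The replicate block raised the members called to 3 and all calls from 2338 to 4499. Every DN4 library was above every DN3 library for 3 of the 6 genes in Wt cells (Ddit4, Ddit3 and Ppp1r15a) and for 20% of all genes. In KO cells this held for 1 of these 6 (Ddit3) and for 22% of all genes. The interaction of stage and genotype gave 0 calls among the 6 genes other than Asns and Trib3 and 0% (0 of 13361) among all, with 480 at an unadjusted p under 0.05 and 2 by DESeq2.

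Sesn2 followed the B-cell markers among DN4 libraries, and Ddit3 did so less closely. Sesn2 was at 14.7, 12.5, 11.7 and 14.4 CPM in WT05, WT48, KO45 and KO49, which held 2541 to 6124 CPM of B-cell markers, and at 7.99, 7.96 and 8.06 CPM in WT40, WT46 and KO51, which held 953 to 1353 CPM. Ddit3 was at 27.9, 24.1 and 21.7 CPM in WT48, KO49 and KO45, but at 18.4 CPM in WT05. That was close to WT40, WT46 and KO51, at 18.2, 16.0 and 18.1 CPM. Over the 7 DN4 libraries, Pearson's r with the log2 summed markers was 0.88 for Sesn2 and 0.83 for Ddit3, as a description of libraries of both genotypes and unequal depth. All 8 B-cell markers had counts in every group. Without the 4 libraries highest in B-cell markers, an alternative chosen after seeing the data, the DN4 minus DN3 value fell to 0.45 in Wt and 0.33 in KO cells for Ddit3, and was -0.16 and -0.02 for Sesn2. Ddit4 was at 1.37 in Wt (edgeR adjusted p = 0.0372) and at 0.60 in KO cells, where 1 DN4 library was left. For Asns, r with the B-cell sum was -0.14 over the same 7 libraries.

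**Figure D4:**
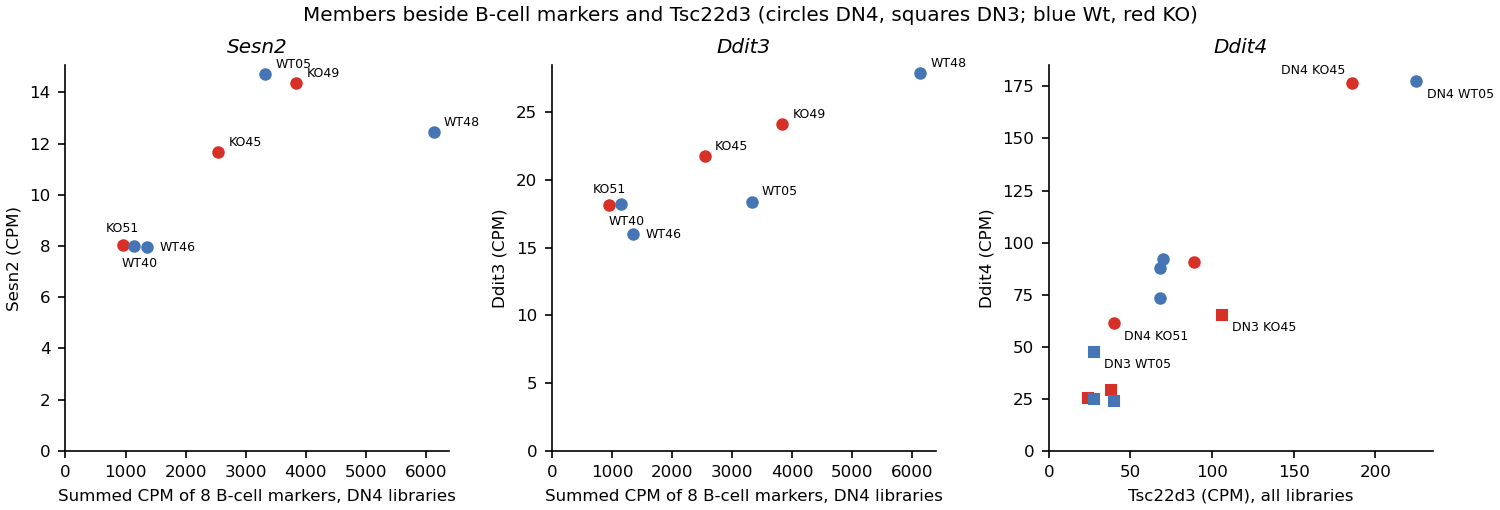
Sesn2 and Ddit3 (CPM) against the summed CPM of 8 B-cell markers in the 7 DN4 libraries, and Ddit4 against Tsc22d3 (CPM) in all 13 libraries (circles DN4, squares DN3, blue Wt, red KO, linear axes). The 3 libraries with the fewest B-cell marker counts have the lowest Sesn2, near 8 CPM, and the DN4 libraries of WT05 and KO45 are highest in both Ddit4 and Tsc22d3.

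Ddit4 and Ppp1r15a each moved with other genes from mouse to mouse. Tsc22d3 (GILZ), a glucocorticoid-induced gene, was at 225 and 186 CPM in the DN4 libraries of WT05 and KO45, the highest in Ddit4, and at 39.7 to 89.0 CPM in the other DN4 libraries. In DN3 it was highest in KO45 (106 CPM), as was Ddit4. After removal of the 4 group means, r over the 13 libraries was 0.85 between Ddit4 and Tsc22d3 on the log2 CPM scale. Ppp1r15a had r of 0.92 with Fos and 0.87 with Dusp1, immediate early genes that respond to stimulation and to cell handling. With the summed immediate early and heat shock list, r was 0.56 for Ppp1r15a, 0.58 for Ddit4 and 0.82 for Sesn2. Fos was at 2.39 to 35.7 CPM in DN3 and 18.7 to 89.3 CPM in DN4, highest in the DN4 library of WT05, which also had the highest Ppp1r15a (54.1 CPM). These 3 genes were picked from their lists after their values were seen, and their part in the results was not tested.

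Of the 18 immediate early and heat shock genes tested, 12 rose from DN3 to DN4 in Wt and 11 in KO cells, beside 13.4% and 11.2% of all genes, and none fell. The greatest changes were those of Egr3, Klf2, Egr2 and Zfp36, by 5.07, 4.98, 3.81 and 3.66 in Wt and 4.33, 3.94, 3.58 and 3.27 in KO cells (log2 fold change, edgeR adjusted p = 0.00157 or less). The B-cell markers rose as well, all 8 in both genotypes. Zfp36 was at 205 to 297 CPM in the 4 DN4 libraries highest in B-cell markers and at 100.4 to 128 CPM in the other 3, against 13.7 to 19.1 CPM in DN3. Without those 4 libraries, 10 genes of the list rose in Wt cells, beside 1104 of all 12848 genes. In KO cells that fit left 1 DN4 library, and its calls are not used. The part of B cells in these changes was not tested. Among 7 glucocorticoid response genes, Zbtb16 and Sgk1 rose in both genotypes, Tsc22d3 rose in Wt cells, and Fkbp5 fell in both (log2 fold change -1.17 in Wt and -0.98 in KO cells). The genes of this list thus moved in opposite directions, and the replicate block raised the number called in KO cells from 3 to 5, as it raised all calls there from 2338 to 4499 (35.8% of all genes).

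The upstream part of the pathway was expressed throughout. All 9 eIF2 kinases and regulators and all 12 eIF2, eIF2B and phosphatase subunits were at 1 CPM or more in every library. Between stages, 1 of the 9 rose and 1 fell in Wt cells (6 had an unadjusted p under 0.05), and 1 rose and 2 fell in KO cells. Of all genes, 13.4% rose and 9.43% fell in Wt cells, and 11.2% and 7.34% in KO cells. Eif2ak3, the kinase PERK of the endoplasmic reticulum, rose from DN3 to DN4 (log2 fold change 0.61 in Wt, SE 0.15, edgeR adjusted p = 0.0217, and 0.71 in KO cells, SE 0.16, edgeR adjusted p = 0.0185). Impact, which inhibits activation of the amino acid sensor GCN2, fell by 0.78 and 0.70 on the log2 scale. Abce1, a ribosome recycling factor, was called in KO cells alone (log2 fold change -0.54), and the difference between genotypes was not called. Of the eIF2, eIF2B and phosphatase subunits, Eif2b3 fell in Wt cells (log2 fold change -0.50), and 0 of 12 were called in KO cells by edgeR (2 at an unadjusted p under 0.05, 0 by DESeq2). With the replicate block, 0 of 12 were called in Wt and 3 in KO cells, and of the 9 kinases and regulators 1 was called in Wt and 3 in KO cells, beside 18.7% of all genes in Wt and 35.8% in KO cells. Of the 6 tested partner transcription factors of ATF4, 0 were called between stages by edgeR, DESeq2 or at an unadjusted p under 0.05. Between genotypes, edgeR called no gene of these lists at either stage, beside 0.0535% of all genes in DN4 and 0% in DN3. Of the partner factors, 1 had an unadjusted p under 0.05 in DN4 and 1 in DN3, beside 715 of 13084 and 168 of 12105 genes. The latter was Jdp2 (log2 fold change 0.81, SE 0.35), named after its value was seen.

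Other ATF4 target genes, mainly of amino acid transport, serine synthesis and tRNA charging, included 9 that fell from DN3 to DN4 in Wt cells, of 31 tested, and 1 that rose (0 rose and 4 fell with the replicate block), where 9.43% of all genes fell and 13.4% rose (6.53% fell with the block). A value above 0 was found for 8 of the 31 in Wt and 7 of 33 in KO cells (47.3% and 47.5% of all genes). The list had a median log2 fold change of -0.21 in Wt cells, against -0.03 for all genes. Phgdh, the first enzyme of serine synthesis, fell by 0.82 on the log2 scale, the tRNA exporter Xpot by 0.72, the amino acid transporter Slc7a5 by 0.70 and the tRNA synthetase Eprs by 0.66. The gene that rose was Psph, the last enzyme of serine synthesis (0.61, edgeR adjusted p = 0.0491), named after its value was seen. In KO cells 1 of 33 fell (Phgdh, -0.70), beside 7.34% of all genes, and 1 rose, with a median of -0.27, and the replicate block raised the number that fell to 14, beside 16.9% of all genes. Without the 4 DN4 libraries highest in B-cell markers, 0 of 31 fell in Wt cells, beside 662 of all 12848 genes, in a fit with fewer libraries. The median was then -0.17 in Wt and -0.07 in KO cells.

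Slc7a11, the cystine transporter, was the target called higher in DN4 KO cells (log2 fold change 3.06, SE 0.82, edgeR adjusted p = 0.0359). In Wt cells it was at 2.48 (SE 0.97, edgeR adjusted p = 0.104), which DESeq2 called (adjusted p = 0.0218). Its 3 DN4 KO libraries were far apart, at 48.97, 5.94 and 7.76 CPM (KO45, KO49, KO51), against 2.14 to 2.79 CPM in DN3 KO libraries. The KO value was 1.43 without the DN4 library of KO45 (edgeR adjusted p = 0.0262). The call was lost without any 1 of the DN3 KO libraries (edgeR adjusted p = 0.0966 to 0.116), while the value stayed at 2.98 to 3.16. The 2 DN4 libraries highest in Slc7a11, KO45 and WT40 (12.2 CPM), were also the highest in Cd4, at 670 and 249 CPM, and the part of CD4-bearing cells was not tested.

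Between genotypes, edgeR called none of these targets at either stage with all libraries. In DN4, 30 of the 32 tested had a log2 fold change above 0 (50.5% of all genes did), with a median of 0.16 against 0.00 for all genes, and 0 were called by edgeR (5 at an unadjusted p under 0.05, 0 by DESeq2). Cell-type markers shifted there too. Above 0 were 0 of 8 B-cell markers (median -0.34), 2 of 10 gamma delta T and NK cell markers (-0.55), 6 of 8 DN3 markers (0.63) and 6 of 8 DN4 and later-stage markers (0.41). The part of cell composition in the values of the targets was not tested. In DN3 it was 24 of 33 (48.9% of all genes), with a median of 0.11, and 0 were called by edgeR (4 at an unadjusted p under 0.05, 0 by DESeq2). The DN3 count rested on KO49, and without it 17 of 33 were above 0, with a median of 0.00. Among the targets tested at both stages, the highest were Slc7a3, a cationic amino acid transporter (1.60 in DN4 and 2.26 in DN3), Slc7a11 (2.30 and 1.65) and the neutral amino acid transporter Slc1a4 (0.94 and 1.37). The DN4 value of Slc7a11 was 0.65 without KO45 and 3.51 without WT40, and Slc1a4 was at 0.52 in DN4 and 0.61 in DN3 without KO49. The glycine transporter Slc6a9, tested in DN3 only, was at 1.91 there. Slc7a3 had every KO library above every Wt library at both stages, at 18 to 49 counts in KO and 3 to 13 in Wt libraries. Slc7a3 and Slc6a9 did not pass the count filter in the Wt libraries alone, so they passed here through their KO libraries, and nothing is read from their values. Without them, 29 of 31 targets were above 0 in DN4, with a median of 0.15, and 22 of 31 in DN3, with a median of 0.09. These 4 genes were named after their values were seen. The count above 0 in DN4 was 23 of 32 without KO51, with a median of 0.08, and 33 of 33 without KO45, with a median of 0.31.

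**Figure D5:**
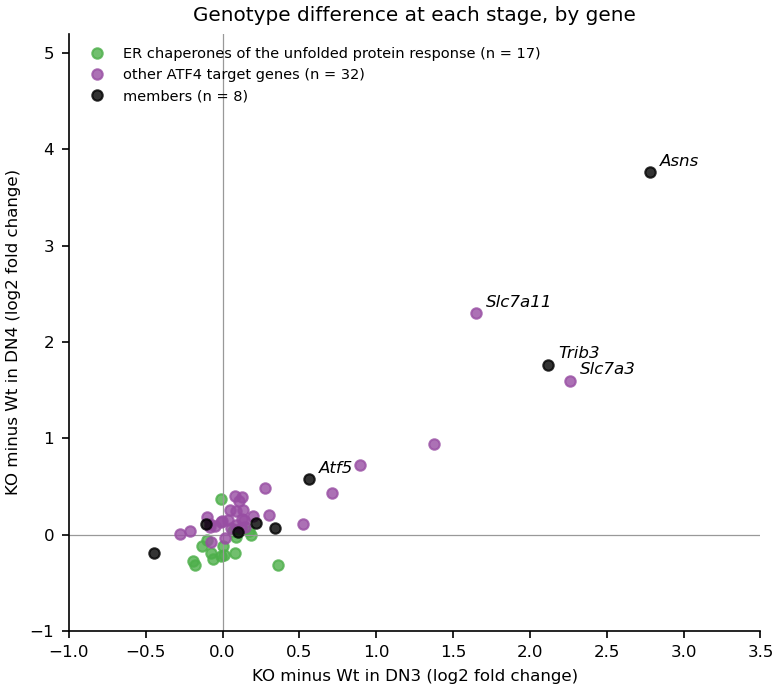
log2 fold change (KO minus Wt) of each gene in DN3 (x axis) and in DN4 (y axis), for the 8 tested members (black), 32 other ATF4 targets (purple) and 17 endoplasmic reticulum chaperones and related genes (green). Asns, Trib3, Slc7a3 and Slc7a11 lie above 1.5 on both axes, Slc7a11 in DN4 through KO45 (0.65 without it), and the chaperones lie near 0.

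Of 17 unfolded protein response genes tested, 4 had a log2 fold change above 0 in DN4 KO cells (median -0.12) and 9 in DN3 (median 0.00). By edgeR 0 were called at either stage (1 and 0 at an unadjusted p under 0.05, 0 by DESeq2). Between stages, Xbp1, a transcription factor of this response, fell in both genotypes (log2 fold change -0.96 in Wt, edgeR adjusted p = 0.0120, and -1.12 in KO cells, edgeR adjusted p = 0.00257). In Wt cells the chaperone cofactors Dnajb11 and Dnajc3 rose by 0.42 and 0.41, and Sdf2l1 fell by 0.43 on the log2 scale. Thus 2 of the 17 rose and 2 fell in Wt cells, beside 13.4% and 9.43% of all genes. With the replicate block, 1 of the 17 was called in Wt cells and 6 in KO cells, beside 18.7% and 35.8% of all genes.

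The genes whose log2 CPM most resembled Asns over the 13 libraries, among the 13361 that passed the filter, were Cox6a2 (Pearson's r = 0.96), Slc7a3 (0.91), Atf5 (0.88), 1700084C06Rik (0.84) and Rbm3 (0.82). For Trib3 they were Gas2l3 (0.82), Gm8494 (0.81), Pstpip2 (0.81), Slc7a3 (0.80) and Cox6a2 (0.79). Cox6a2, the muscle isoform of a cytochrome c oxidase subunit, had 16, 46 and 19 counts in DN3 KO and 10, 94 and 50 in DN4 KO libraries (KO45, KO49, KO51) against 1 to 7 in the Wt libraries. It thus shared with Asns the order of the DN4 KO libraries, with KO49 highest and KO45 lowest. The correlations are descriptions over libraries that share the genotype difference used to choose Asns and Trib3, and several of these genes had few counts.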

How the data were processed

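RNA of sorted DN3 and DN4 cells was sequenced as stranded mRNA libraries, 1 per mouse and stage. The authors trimmed reads with Cutadapt, mapped them with STAR (mm10) and counted them per gene with featureCounts, and the deposited table holds these raw counts, with 0 columns unused. Multiply mapped reads, versions and the strand setting are not given in the sources used here, so genes sharing reads may be miscounted. Libraries were grouped by their labels. Members and lists were chosen with earlier results of these data known, and which comparison led to the choice of Asns and Trib3 is not recorded.

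Genes were filtered by filterByExpr (minimum count 10), scaled by TMM and tested in each comparison with the edgeR 4.0.16 quasi-likelihood test (R 4.3.3), adjusted by Benjamini-Hochberg over all genes tested, with a threshold of 0.05. The main fits used the 2 groups compared, and the interaction all 4. Alternatives were DESeq2 1.42.0 (test and size factors), no filter, 1 fit of all libraries, a mouse block, and leaving out each library. log2 CPM used a prior count of 2. Genes named from lists were up to 4 called per list and comparison with the greatest change, and for Asns and Trib3 the 5 genes of highest correlation. Scripts were tested on simulated data with 200 genes changed 4-fold, and edgeR recovered 83.0% of them in the DN4 genotype comparison (13084 genes) and 89.0% in DN3 (12105 genes), while 7.26% and 9.64% of its calls there were false, as were 16.6% and 20.3% of those of DESeq2. The same number in a DN3 and a DN4 label was taken to mark the same mouse. Deviations from the group means correlated by 0.12 to 0.46 over 13361 genes in the 6 mice. Libraries of different mice were not compared in this way, so these values do not show that the numbers mark mice. No pair of libraries within a group was a duplicate (smallest chi-square per degree of freedom 6.19).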

Additional observations from a re-analysis of the deposited data

How the results depend on the processing

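Low counts limit Asns, Trib3, Chac1 and Atf3 most, and 3 or 4 libraries per group limit every call. Of the 8 members tested, Asns, Trib3, Atf5 and Ddit3 kept a positive KO minus Wt value at both stages in every alternative run. For members called from DN3 to DN4 in Wt cells (1), DESeq2 and the fit of all libraries each gave 2. In KO cells (0), no filter gave 2, the fit of all libraries 1 and the replicate block 3. Between genotypes, no filter, DESeq2 and the fit of all libraries each gave 1 in DN4 (0), and DESeq2 gave 1 in DN3 (0). That member was Asns, which was chosen for its values, and nothing is read from these counts. Leaving out 1 library gave 0 to 2 members called between stages in Wt, 0 to 1 in KO, 0 to 1 between genotypes in DN4 (Asns again, without KO45), and 0 in DN3 and for the interaction.

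Over all genes, leaving out 1 library gave 1845 to 3393 calls between stages in Wt, 1407 to 2790 in KO, 0 to 8 between genotypes in DN4, 0 to 1 in DN3, and 0 for the interaction. No filter gave 11 in DN4 and 1 in DN3, DESeq2 gave 51, 3 and, for the interaction, 2, and the replicate block gave 4499 between stages in KO. Beyond those given with the results, the replicate block changed no other call of a member or of a list by over 1.5 times. Without the 4 DN4 libraries highest in B-cell markers, chosen after seeing the data, calls were 1766 between stages in Wt, 714 in KO and 897 between genotypes in DN4, with 2 members called there. That last fit set 1 KO library against 2 Wt libraries, the lone library being assumed to vary like the others, and no call of it is used. In it Ddit4 was at -0.41, against 0.07 with all libraries. The fit of mice with both libraries but no block was also chosen after seeing the data. Ddit4 from DN3 to DN4 in KO cells was 0.86 without the DN4 library of KO45 and 2.00 without its DN3 library, and Ppp1r15a was 1.16 without the DN3 library of KO51. The cause of these changes was not tested. No member called with all libraries changed sign.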
